A study of Mus musculus with 8 samples.

Results

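The chemokines and chemokine receptors measured in lacrimal glands (LGs) of mice fed ad libitum (AL) or held on calorie restriction (CR) are described here. They are the genes whose symbols begin with Ccl, Cxcl, Ccr or Cxcr followed by a number, which gave 54 members among the 24552 genes in the table, 37 ligands and 17 receptors. Exorbital LGs came from female C57BL/6J mice that ate AL or at a 40% restriction for 4 months from the age of 6 to 7 months, so that all were 10 to 11 months old at the end. No agent, transgene or gene deletion was used, and AL and CR each gave 4 libraries of whole gland RNA, in which reads mark the 3′ ends of transcripts. The counts on genes ranged from 12051881 to 22156511 per library, and of these the 54 genes together took between 0.00995 and 0.0316%.

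Chemokines are small secreted proteins that guide leukocytes along gradients, and their receptors are membrane proteins that signal through Gαi proteins and arrestins. Some chemokines are induced in inflammation and draw monocytes, granulocytes or effector T cells, others are made steadily by epithelia and stroma, and a small set made in lymphoid tissue, Cxcl13, Ccl19 and Ccl21, gathers B cells, T cells and dendritic cells into follicles and T cell zones. LGs of ageing mice are known to collect foci of lymphocytes, in which these lymphoid-tissue chemokines and their receptors Cxcr5 and Ccr7 are commonly looked for.

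Counts were found for 42 of the 54 genes in at least 1 library, and 12 had none. AL libraries had counts for between 32 and 35 of the genes and CR libraries for between 27 and 33. Enough counts for the test across all genes were reached by 19, namely 15 ligands and 4 receptors, while 23 were counted but fell under the filter on low counts. Levels are given as CPM, counts scaled to a common library size with relative log expression (RLE) factors, and 3 counts, taken as the floor of detection, correspond to between 0.152 and 0.231 CPM. These reads carry no molecular identifiers, so the floor covers counting error only. Reads come from transcript ends, so CPM were not divided by length, and the order of levels between genes is approximate.

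Both diets' libraries held the LG transcripts Lcn11, Scgb2b24, Aqp5 and Ltf, and also parotid gland transcripts such as Bpifa2. The 7 LG transcripts summed to between 22170 and 59970 CPM in AL and between 12390 and 40790 CPM in CR, with overlap. Of them edgeR called 1 lower (against 0.785% of all genes) and 1 higher (against 1.2%). Scgb2b7, a secretoglobin, had means of 569.7 CPM in AL and 2.22 CPM in CR and was nearly absent from 3 CR libraries (log2 fold change -7.96, BH-adjusted p = 0.0197 in edgeR). Sox10, a transcription factor of secretory acini, had means of 15.3 CPM in AL and 67.2 CPM in CR (2.13, BH-adjusted p = 0.00746 in edgeR), and DESeq2 also called Ltf lower. The 5 parotid transcripts summed to between 236.7 and 23470 CPM in AL and between 17820 and 229600 CPM in CR, so the sums overlapped, but CR was far higher in 3 libraries. edgeR called 3 of the 5 higher (against 1.2% of all genes), each without overlap (against 4.58%). In edgeR these were Prb1 (log2 fold change 5.88, BH-adjusted p = 0.0378), Prh1 (9.72, BH-adjusted p = 0.0207) and Prp2 (9.85, BH-adjusted p = 0.00701). DESeq2 called all 5 higher (against 3.14%). White adipose transcripts summed to between 5.32 and 13.1 CPM in AL and between 24.4 and 72.8 CPM in CR, and edgeR called 2 of the 4 tested higher (against 1.2% of all genes). The part of these tissues in the chemokine values was not tested, beyond a fit with a parotid score as covariate.

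Upstream sequences are shown for 4 genes on which the comparisons below turn: Cxcl13 and Ccl9, whose diets did not overlap and which DESeq2 called, Ccr3, a receptor near the floor in CR, and Cxcl1, a ligand of neutrophils. Each is the 250 bases before the RefSeq transcript start on GRCm38.p6, 5′ to 3′ on the gene's strand, with matches on either strand to the letters TATAAA, a core promoter box, or to NF-kB letters, which are GGGA, any pair of bases and TTCC, in capitals. The windows are chr5:95956689-95956938 (+) for Cxcl13, chr11:83578637-83578886 (-) for Ccl9, chr9:124021721-124021970 (+) for Ccr3 and chr5:90890995-90891244 (+) for Cxcl1.
Cxcl13: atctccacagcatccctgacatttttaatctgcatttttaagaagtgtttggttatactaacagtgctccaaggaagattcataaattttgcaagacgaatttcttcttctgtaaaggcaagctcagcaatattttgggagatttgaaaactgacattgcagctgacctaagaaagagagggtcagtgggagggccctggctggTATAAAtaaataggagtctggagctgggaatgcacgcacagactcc
Ccl9: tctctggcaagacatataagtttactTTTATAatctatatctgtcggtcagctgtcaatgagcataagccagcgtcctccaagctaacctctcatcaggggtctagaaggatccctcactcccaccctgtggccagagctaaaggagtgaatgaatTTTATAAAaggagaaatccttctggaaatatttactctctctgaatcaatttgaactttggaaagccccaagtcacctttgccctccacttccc
Ccr3: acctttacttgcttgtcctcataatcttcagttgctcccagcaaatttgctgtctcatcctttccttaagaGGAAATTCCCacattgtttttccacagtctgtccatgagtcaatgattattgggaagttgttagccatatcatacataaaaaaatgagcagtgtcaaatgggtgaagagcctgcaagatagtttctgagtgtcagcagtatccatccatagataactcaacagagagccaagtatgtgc
Cxcl1: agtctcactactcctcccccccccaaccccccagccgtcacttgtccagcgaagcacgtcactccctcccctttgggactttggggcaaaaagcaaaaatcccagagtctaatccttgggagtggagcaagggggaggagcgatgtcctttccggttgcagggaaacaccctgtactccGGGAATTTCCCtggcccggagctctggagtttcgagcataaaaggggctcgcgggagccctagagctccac
In Cxcl13 the core promoter letters begin at position -46 from the start, and in Ccl9 matches begin at -224, -94 and -92, the last a pair that overlaps on opposite strands. Ccr3 has a match to the NF-kB letters at -179, and Cxcl1 has a pair at -71 and -70 that overlaps on opposite strands.

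RefSeq promoters, which go on for 50 bases past the start, were matched for 38 of the 54 genes, in 45 entries. Genes with no matched entry included Ccl2, Ccl4, Ccl5, Ccl7, Ccl11, Ccl21c, Ccl24, Ccl26, Ccr7, Ccr10, Cxcl5, Cxcl11, Cxcl16, Cxcl17 and Cxcr5. The NF-kB letters were present in 6 of the 45 entries (13.3%), those of Ccl1, Ccr3, Cxcl1, Cxcl2, Cxcl3 and Cxcl10, and in 1.47% of all 32851 promoters. The letters of the core promoter box were present in 24.4% of the entries and 13.6% of all promoters. The shares for TTCNNNGAA, the GAS element, were 8.89 and 8.3%, and those for the E-box CACGTG were 2.22 and 7.15%. These matches describe letters only, and of the genes with NF-kB letters just Cxcl1 was counted often enough to be tested.

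The question put to these genes was whether their levels differed between CR and AL. The study's thresholds were kept, which ask for 1.5-fold and for 0.05 on the adjusted p. With them the quasi-likelihood test of edgeR, adjusted over all genes after Benjamini and Hochberg (BH), called 0 of the 19 tested members higher and 0 lower in CR, where it called 1.2% of the 11211 genes tested higher and 0.785% lower. Taking p under 0.05 before adjustment, edgeR counted 3 of 19 higher (15.8%, against 8.62% of all genes) and 6 lower (31.6%, against 8.1%). DESeq2, the study's own tool, gave an adjusted p to 31 members and called 1 of them higher, Cxcl13 (3.23%, against 3.14% of all genes), and 2 lower, Ccl9 and Ccr3 (6.45%, against 2.4%). The same 3 genes were called by edgeR when no filter on low counts was applied, 1 of 42 higher (2.38%, against 1.62%) and 2 lower (4.76%, against 0.986%). The call for each of these genes therefore depends on the tool and the filter. Ccr3 had 75 of its 81 counts in AL and 6 in CR, so it had enough counts for DESeq2 through the diet where it was high. The shares called lower include it and are not read as a result about the members.

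Among the 19 tested members, the log2 fold change was above 0 in 5 and below 0 in 14, with a median of -0.63, beside 0.01 for all genes tested. The CR libraries were all above the AL libraries for Cxcl13, Cxcl17 and Cxcl1 (15.8%, against 4.58% of all genes), and below for Ccl9 and Cxcl12 (10.5%, against 5.2%). AL replicate 3 held the highest value of 11 of the 19 members, all of them genes with a fold change below 0. Without it, the count at an unadjusted p under 0.05 in edgeR was 2 higher, Cxcl13 and Cxcl17 (against 7.97% of all genes), and 2 lower, Ccl9 and Cxcl12 (against 6.14%). Since whole glands were sequenced, fewer cells of a type and less RNA per cell cannot be told apart.

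**Figure D1:**
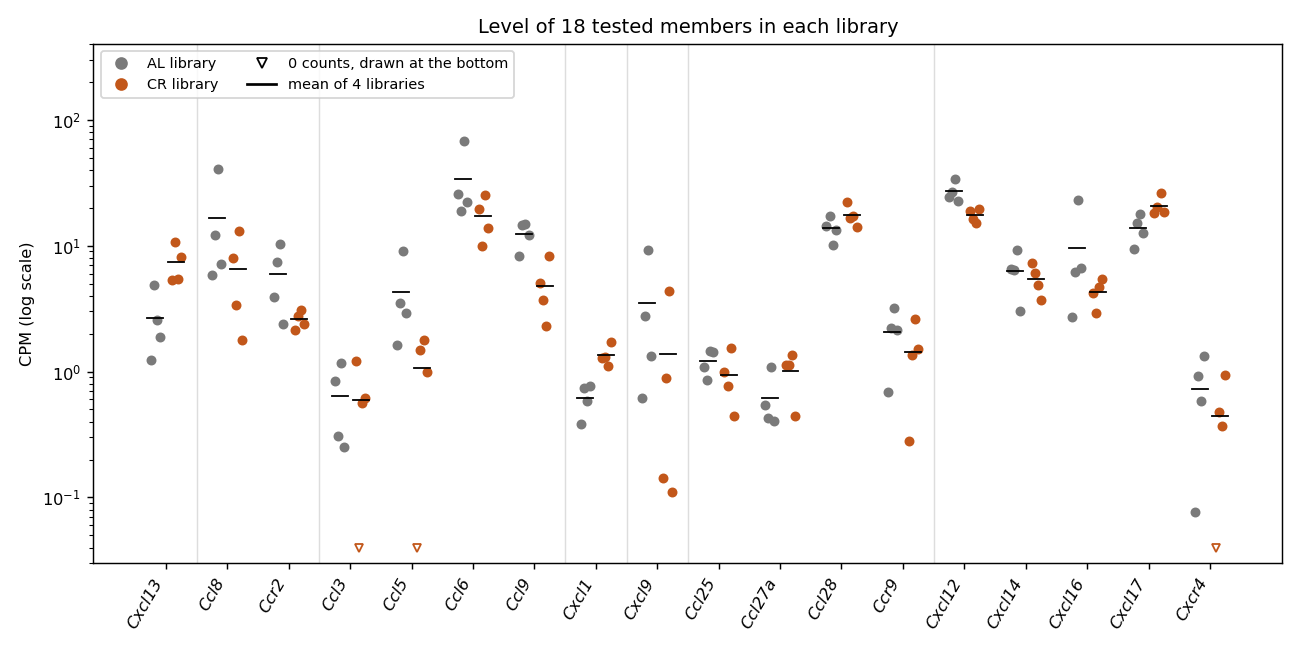
Level of 18 of the 19 tested members in CPM on a log axis, 1 point per library, grey for AL and orange for CR, with a black line at the mean of 4 libraries; open triangles at the bottom mark libraries with 0 counts, and vertical lines separate receptor axes. The CR points lie wholly above the AL points for Cxcl13, Cxcl1 and Cxcl17 and wholly below for Ccl9 and Cxcl12.

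**Figure D2:**
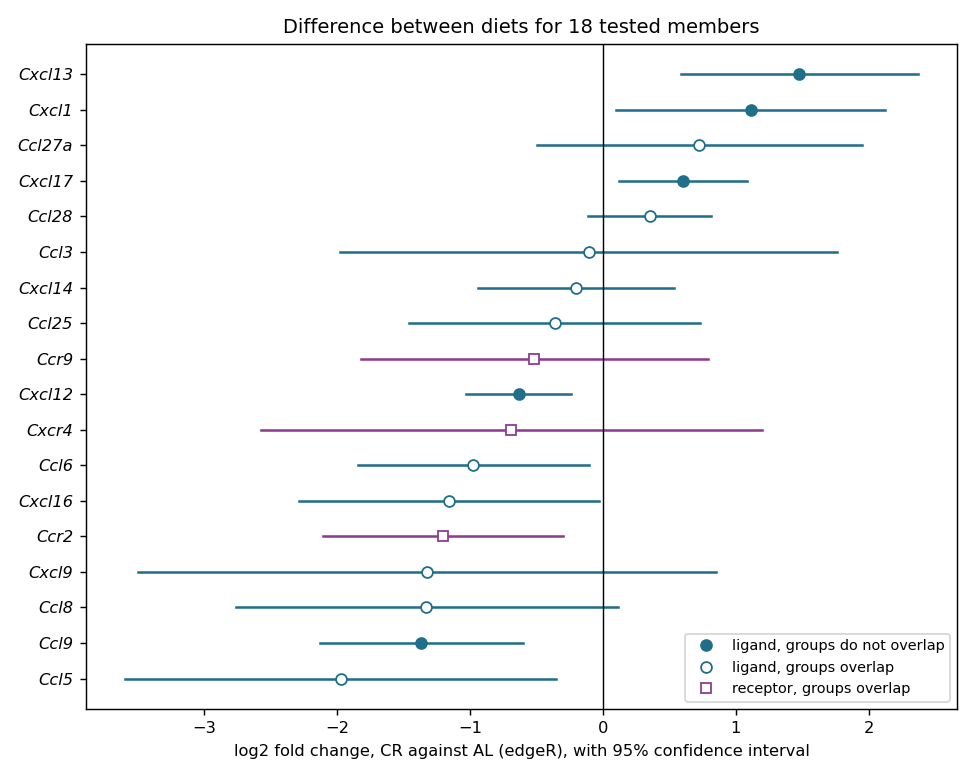
Log2 fold change of CR against AL from edgeR for 18 of the 19 tested members, with 95% confidence intervals; circles are ligands and squares are receptors, filled where the libraries of the diets do not overlap. Values run from -1.97 for Ccl5 to 1.48 for Cxcl13, and 13 of the 18 lie below 0.

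The lymphoid-tissue members are described apart. Cxcl13, the ligand of B cell follicles (Gene ID 55985, chromosome 5 from 95956951 to 95961068), measured 1.23, 4.91, 2.55 and 1.88 CPM in the AL libraries 1 to 4 and 5.31, 10.7, 5.45 and 8.16 CPM in the CR libraries 1 to 4. The lowest CR library lay just above the highest AL library, AL replicate 2. The means were 2.64 ± 1.60 CPM in AL and 7.39 ± 2.54 CPM in CR (SD, n = 4 in both), and the log2 fold change was 1.48 (standard error 0.41, BH-adjusted p = 0.0883 in edgeR). DESeq2 gave 1.49 with a BH-adjusted p of 0.0146. Leaving out 1 library at a time, edgeR gave between 1.26 and 1.96 and called it in 0 of 8 fits, while DESeq2 called it in 5 of 8.

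Cxcr5, the receptor of Cxcl13 on B cells and follicular T cells, had 1, 4, 1 and 3 counts over the AL libraries and 0 in each CR library. Of the AL counts only AL replicate 2 was above the floor, and CR was under it, so no fold is given. Ligand and receptor thus stood in opposite order between the diets, the ligand with more counts in CR and the receptor with its few counts in AL, and only the ligand was counted often enough to be tested. Ccr7, which brings T cells and dendritic cells to Ccl19 and Ccl21, had 6, 16, 15 and 0 counts in AL and 0, 0, 4 and 4 in CR. The diets overlapped for Ccr7, as AL replicate 4 had none (log2 fold change -2.32, BH-adjusted p = 0.438 in edgeR without a filter).

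The ligands of Ccr7 had no counts. Ccl19, Ccl21a, Ccl21b and Ccl21c were at 0 in every library, but these genes lie among near-identical copies. Of the 75-base windows in the last 600 bases of their transcripts, 47.6% in Ccl19, 74.5% in Ccl21a and 100% in Ccl21b were also found in another gene of GENCODE vM21, and Ccl21c is not in that annotation under this symbol. How reads that fit several genes were counted is not given in the sources used here, so a 0 for these genes cannot be read as absence.

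**Figure D3:**
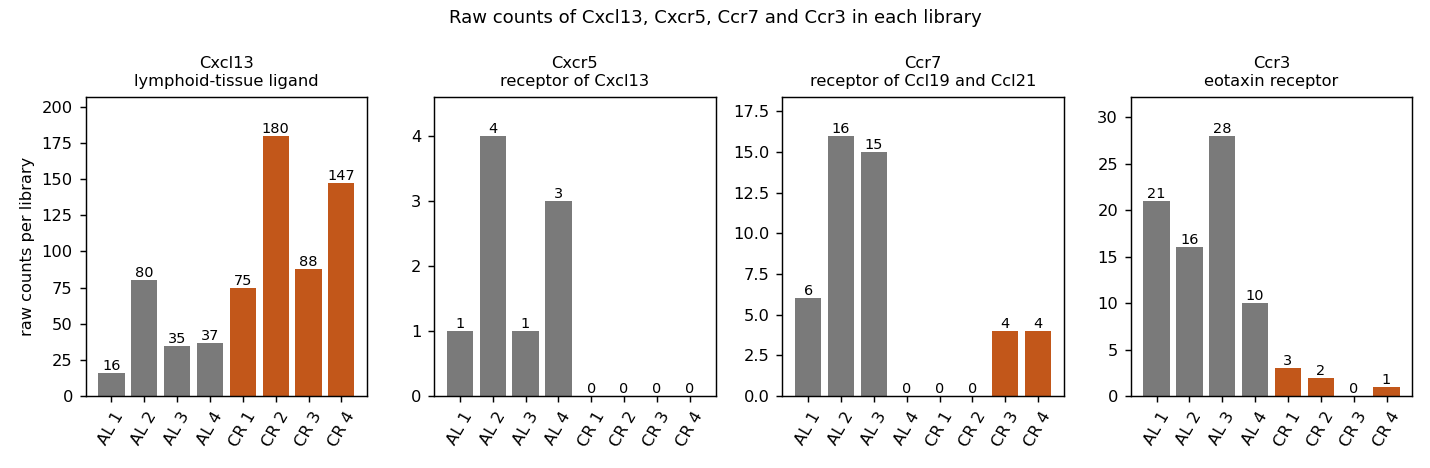
Raw counts of Cxcl13, Cxcr5, Ccr7 and Ccr3 in each library, grey for AL and orange for CR, each panel with its own axis from 0 and the count printed on each bar. Cxcl13 runs from 16 to 80 in AL and from 75 to 180 in CR, Cxcr5 has no count in CR, Ccr7 has none in AL replicate 4 or CR replicates 1 and 2, and Ccr3 runs from 10 to 28 in AL and from 0 to 3 in CR.

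Markers of the cells that these signals serve were counted beside them. Of 9 B cell markers, 2 were tested and 0 called by edgeR (1 lower at an unadjusted p under 0.05, against 8.1% of all genes), and their sum ranged from 1.83 to 14.0 CPM in AL and from 1.01 to 2.42 CPM in CR. DESeq2 gave an adjusted p to 5 of the B cell markers and called 3 lower (against 2.4% of all genes), Ms4a1 (-3.60, BH-adjusted p = 0.000167), Cd79b (-3.25, BH-adjusted p = 0.0367) and Cd22 (-3.04, BH-adjusted p = 0.0244). Ms4a1, which encodes CD20, was at 2.31, 3.37, 4.30 and 0.457 CPM in AL and at 0.141, 0.178, 0.372 and 0.167 CPM in CR, with no overlap. For 9 T cell markers with counts, the sum ranged from 3.01 to 15.7 CPM in AL and from 1.70 to 3.02 CPM in CR, and of these edgeR called 0 of 2 tested (1 lower at an unadjusted p under 0.05) and DESeq2 called Cd3d lower (-3.49, BH-adjusted p = 0.00887). Glycam1, made by high endothelial venules where lymphocytes leave the blood, was at 0.539, 1.59, 1.97 and 0.558 CPM in AL and had counts in CR replicate 4 alone, at 0.0555 CPM, while Chst4 and Madcam1 were at 0 in all libraries. DESeq2 called Glycam1 lower (BH-adjusted p = 0.000503). Glycam1, Ms4a1, Cd79b and Cd3d fell under the edgeR filter. They had 71, 153, 67 and 82 counts in AL and 1, 14, 8 and 8 in CR. They thus had enough counts for DESeq2 through the diet where they were high, and Glycam1 was under the floor in every CR library. Cr2, a marker of B cells and follicular dendritic cells, overlapped between the diets (log2 fold change -0.13, BH-adjusted p = 0.975 in edgeR). Among 7 genes of lymphoid organisation, the sums overlapped, from 18.8 to 27.3 CPM in AL and from 18.6 to 37.2 CPM in CR, and Ltbr made up most of them. The part of these cells in the Cxcl13 values was not tested, while Cxcl13 had its higher values in CR and the summed B cell markers had theirs in AL, with overlap.

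Next are Ccr1 and the inflammatory CC ligands grouped with it. Ccl9, a macrophage chemokine that acts through Ccr1 (Gene ID 20308, chromosome 11 from 83572919 to 83578636), measured 8.32, 14.5, 14.9 and 12.1 CPM in the AL libraries 1 to 4 and 5.09, 3.67, 2.29 and 8.22 CPM in the CR libraries 1 to 4. CR replicate 4 lay close under AL replicate 1, and the other CR libraries were well below. The means were 12.5 ± 3.02 CPM in AL and 4.82 ± 2.54 CPM in CR, a log2 fold change of -1.37 (standard error 0.35, BH-adjusted p = 0.0677 in edgeR). DESeq2 gave -1.36 with a BH-adjusted p of 0.00787 and called it in 6 of 8 fits that left out 1 library. In edgeR it was called in 1 of 8 such fits, the one without CR replicate 4 (log2 fold change -1.76), and with the parotid score as covariate the value was -0.69 and not called.

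Ccl6, a close relative encoded beside Ccl9 (Gene ID 20305, chromosome 11 from 83587882 to 83593087), was the most counted member. Its libraries had 25.8, 18.8, 67.7 and 22.3 CPM in AL and 19.4, 10.0, 25.4 and 13.8 CPM in CR. AL replicate 3 stood far above the rest, and the other libraries of the diets overlapped. The log2 fold change was -0.97 (standard error 0.40, BH-adjusted p = 0.237 in edgeR), and -0.39 without AL replicate 3.

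Ccl5, which draws T cells and monocytes, had means of 4.26 ± 3.28 CPM in AL and 1.07 ± 0.784 CPM in CR, a log2 fold change of -1.97 (BH-adjusted p = 0.196 in edgeR). It was highest in AL replicate 3, without which the value was -1.31, and at 0 in CR replicate 1. Ccl3, an inflammatory ligand of macrophages and T cells, was alike in mean, 0.643 and 0.593 CPM, with a wide 95% interval of the log2 fold change from -1.97 to 1.76. Ccl4, a close relative of Ccl3, was under the filter, with 4, 8, 8 and 8 counts in AL and 4, 3, 0 and 5 in CR. Ccr1 had 14 counts in AL and 19 in CR in all, with at most 10 counts of this receptor of Ccl9 and Ccl6 in any library, and Ccr1l1 had none.

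On the monocyte axis, the receptor Ccr2, which lets monocytes leave the bone marrow and enter tissue, had means of 6.00 ± 3.54 CPM in AL and 2.60 ± 0.429 CPM in CR. Its libraries overlapped through AL replicate 4 (2.38 CPM), and the log2 fold change was -1.20 (BH-adjusted p = 0.159 in edgeR). Ccl8, a macrophage chemokine grouped here with the Ccr2 ligands, had means of 16.5 ± 16.4 and 6.57 ± 5.13 CPM and a log2 fold change of -1.33 (BH-adjusted p = 0.345 in edgeR), which was -0.36 without AL replicate 3. The classic Ccr2 ligands were nearly silent, with 21 counts of Ccl2, 6 of Ccl7 and 1 of Ccl12 over all 8 libraries.

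Macrophage and monocyte markers were counted beside these genes. Each of the 10 markers was tested and had a log2 fold change below 0, with a median of -0.91, 7 of them at an unadjusted p under 0.05 in edgeR (against 8.1% of all genes), and 1 fell, Lyz2, which encodes lysozyme (-1.48, BH-adjusted p = 0.0312 in edgeR). DESeq2 called the same marker, and 2 of the 10 lay wholly lower in CR (against 5.2% of all genes). Their sum ranged from 104.6 to 273.5 CPM in AL, with AL replicate 3 highest, and from 64.1 to 113.7 CPM in CR, with overlap. The part of macrophage content in the values of Ccl6, Ccl8, Ccl9 and Ccr2 was not tested.

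Ccr3, the eotaxin receptor of eosinophils that is also known on mast cells (Gene ID 12771, chromosome 9 from 124021972 to 124031689), was under the filter and is described because its diets did not overlap and DESeq2 called it, a choice made after its values were seen. It had 21, 16, 28 and 10 counts over the AL libraries and 3, 2, 0 and 1 over the CR libraries. All AL libraries were above the floor of 3 counts and no CR library was. In CPM the means were 1.29 ± 0.678 in AL and 0.0965 ± 0.0910 in CR. DESeq2 gave a log2 fold change of -3.76 (BH-adjusted p = 0.00334) and edgeR without a filter -3.66 (BH-adjusted p = 0.0375). As CR was at or under the floor, these folds are not exact sizes. In DESeq2 it was called in all 8 fits that left out 1 library, with BH-adjusted p from 0.00304 to 0.0463. It passed the filter of edgeR in 5 of the 8 fits that left out a library. In both tools it had enough counts through the AL libraries, where it was high (75 counts, and 6 in CR). Nothing is therefore read from those fits of either tool.

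The ligands of Ccr3 overlapped between the diets or had no counts. Ccl11, eotaxin, had 8, 8, 7 and 51 counts in AL and 7, 8, 6 and 33 in CR, high in replicate 4 of both diets. Ccl24 had 22 counts in AL replicate 3 and at most 2 elsewhere, and Ccl26 had none. Of the eosinophil markers, Epx and Ear6 were at 0 in every library, Siglecf had 1 count in all, and Prg2 had means of 0.791 CPM in AL and 0.563 CPM in CR. Of 6 mast cell markers, 5 were tested, each with a log2 fold change below 0, and edgeR called 0 (4 at an unadjusted p under 0.05, against 8.1% of all genes). The other, Ms4a2, was under the filter and went the other way, with 8 counts, all in CR replicate 3. Cpa3, a mast cell protease, was at 2.62, 3.25, 5.47 and 6.75 CPM in AL and at 1.63, 0.829, 1.98 and 1.78 CPM in CR, without overlap (log2 fold change -1.54, BH-adjusted p = 0.0735 in edgeR), and DESeq2 called it lower (BH-adjusted p = 0.0141). Kit, the receptor that mast cells need, overlapped, at 7.63 and 7.20 CPM in mean. The part of mast cells in the Ccr3 counts was not tested.

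Ligands of the neutrophil receptor Cxcr2 were few. Cxcl1 (Gene ID 14825, chromosome 5 from 90891241 to 90893115) measured 0.385, 0.736, 0.583 and 0.761 CPM in the AL libraries 1 to 4 and 1.27, 1.30, 1.11 and 1.72 CPM in the CR libraries 1 to 4. All CR libraries lay above AL, from counts of 5 to 15 in AL and 18 to 31 in CR. The log2 fold change was 1.11 (standard error 0.46, BH-adjusted p = 0.245 in edgeR). Cxcl2, encoded next to it, had 17 counts in AL and 20 in CR, and Cxcl5 had 17 of its 19 counts in AL replicate 1. Cxcl3, Cxcl15 and Cxcr2 had none, and all 5 counts of Cxcr1 were in AL replicate 1. Neutrophil markers were near 0, with Ly6g, Elane and Camp at 0 in every library, S100a8 at 8 counts in AL and 4 in CR and S100a9 at 9 and 4, while Retnlg had 6, 0, 1 and 11 counts in AL and 14, 10, 8 and 21 in CR. Of the 3 counted markers, Retnlg alone had its higher mean in CR, and all 3 overlapped between the diets (Retnlg log2 fold change 1.53, BH-adjusted p = 0.482 in edgeR without a filter). The part of neutrophils in the Cxcl1 values was not tested.

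The interferon-induced ligands of Cxcr3, the receptor of Th1 and cytotoxic T cells, were uneven between libraries. Cxcl9 was at 0.616, 2.76, 9.26 and 1.32 CPM in AL and at 0.141, 0.888, 4.40 and 0.111 CPM in CR. Replicate 3 was highest on both diets, and the groups overlapped (log2 fold change -1.32, BH-adjusted p = 0.566 in edgeR). The value was -0.19 without AL replicate 3 and -3.14 without CR replicate 3. Cxcl10 had 38 counts in AL, 28 of them in AL replicate 3, and 6 in CR. Cxcl11, the other such ligand, had 2 counts in AL and 5 in CR. Cxcr3 had 1, 12, 17 and 4 counts in AL and 0, 0, 1 and 5 in CR.

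Ligands of epithelia and stroma made up most of the rest. Cxcl12, the stromal ligand that retains leukocytes and progenitors (Gene ID 20315, chromosome 6 from 117168535 to 117181367), measured 24.5, 26.8, 34.1 and 22.7 CPM in the AL libraries 1 to 4 and 18.8, 16.3, 15.2 and 19.4 CPM in the CR libraries 1 to 4. Each CR library was below each AL library, with little spread in either group. The log2 fold change was -0.63 (standard error 0.18, BH-adjusted p = 0.0988 in edgeR), just past the 1.5-fold threshold in size, and -0.50 without AL replicate 3. Its receptor Cxcr4 had means of 0.725 and 0.447 CPM, overlapped, and had a 95% interval from -2.57 to 1.19. With 1 library left out, its log2 fold change ran from -1.04 to -0.29 in the 5 edgeR fits that tested it. In DESeq2 it ran from -1.36 to -0.23. Of 6 fibroblast markers, all tested, 4 had a log2 fold change below 0 and 2 above, and their sums overlapped, from 128.7 to 242.2 CPM in AL and from 128.7 to 199.2 CPM in CR. At an unadjusted p under 0.05 in edgeR 3 were lower (against 8.1% of all genes), and 1 fell, Col1a1, a chain of type I collagen (-2.50, BH-adjusted p = 0.00157 in edgeR, also called by DESeq2). Dcn, decorin, which was the most counted of them, had 0.22. The part of fibroblasts in the Cxcl12 values was not tested.

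Cxcl17, a mucosal chemokine of glandular epithelia (Gene ID 232983, chromosome 7 from 25400053 to 25412886), measured 9.32, 15.0, 17.9 and 12.5 CPM in the AL libraries 1 to 4 and 18.2, 20.4, 26.0 and 18.5 CPM in the CR libraries 1 to 4. The gap between AL replicate 3 and CR replicate 1 was small, and the means were 13.7 ± 3.66 and 20.8 ± 3.63 CPM. The log2 fold change was 0.60 (standard error 0.22, BH-adjusted p = 0.187 in edgeR). Cxcl14, a homeostatic epithelial chemokine, had means of 6.31 and 5.47 CPM and a log2 fold change of -0.20, which was -1.64 with the parotid score as covariate and not called (BH-adjusted p = 0.501 in edgeR).

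Cxcl16, made in a membrane-bound and a secreted form, had means of 9.64 ± 9.10 CPM in AL and 4.31 ± 1.05 CPM in CR and a log2 fold change of -1.16 (BH-adjusted p = 0.288 in edgeR). AL replicate 3 alone held 23.0 CPM, while the other AL libraries had between 2.70 and 6.70 CPM and overlapped with CR, and without it the log2 fold change was -0.28. Its receptor Cxcr6, known on tissue-resident T cells, was under the filter with 84 counts in AL and 20 in CR, and the diets overlapped. DESeq2 called it in 1 fit, the one without CR replicate 4 (log2 fold change -2.97, BH-adjusted p = 0.0235), and not with all libraries (-2.18, BH-adjusted p = 0.0971).

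Ccl28, which draws IgA plasma cells to mucosal glands through Ccr10, had means of 13.7 ± 2.91 CPM in AL and 17.5 ± 3.46 CPM in CR (log2 fold change 0.35, 95% interval -0.11 to 0.82). With 1 library left out, edgeR gave from 0.22 to 0.48. Ccr10 had no counts in AL and 4, 5, 5 and 0 in CR replicates 1 to 4 (BH-adjusted p = 0.244 in edgeR without a filter). Of the plasma cell markers, Jchain, which joins secreted IgA, had means of 18.5 ± 8.19 CPM in AL and 8.17 ± 2.88 CPM in CR, with a log2 fold change of -1.18 (BH-adjusted p = 0.120 in edgeR). DESeq2 called Jchain lower (-1.18, BH-adjusted p = 0.0341), and its libraries overlapped through AL replicate 1. Mzb1, a chaperone of antibody-secreting cells, had means of 2.59 CPM in AL and 0.815 CPM in CR (-1.65, BH-adjusted p = 0.223 in edgeR), while Tnfrsf17, the BCMA receptor of plasma cells, had 11 counts in AL and 18 in CR. Both overlapped between the diets, and the part of plasma cells in the Ccl28 and Ccr10 values was not tested.

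Ccl27a, a skin chemokine and the other ligand of Ccr10, had means of 0.617 and 1.02 CPM (log2 fold change 0.72, and 1.14 without AL replicate 3), but 35.9% of its windows were shared with other genes, among them Ccl27b, which was at 0. Ccl25, which guides cells of the gut and thymus through Ccr9, had means of 1.20 and 0.938 CPM, and Ccr9 had means of 2.06 and 1.44 CPM. Both overlapped, with log2 fold changes of -0.36 and -0.51, and leaving out 1 library gave from -0.71 without CR replicate 3 to -0.13 without CR replicate 4 for Ccl25 and from -0.95 without CR replicate 3 to -0.17 without CR replicate 1 for Ccr9. Ccr6, the receptor of Ccl20 on B cells and Th17 cells, had 14 and 22 counts in AL replicates 2 and 3, none in AL replicates 1 and 4, and 3 in CR, and Ccl20 itself had 3 counts, all in CR replicate 1. Ccr4 and Ccr8 had none, though their ligands Ccl17 (21 counts in AL and 23 in CR), Ccl22 (7 and 3) and Ccl1 (4 and 0) were counted.

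Seen by kind, 13 of the 17 receptors had counts, and 11 of the 13 had a lower mean CPM in CR, the others being Ccr1 and Ccr10. Of the 4 receptors counted often enough for edgeR, 0 were called (1 lower at an unadjusted p under 0.05, Ccr2, against 8.1% of all genes), and Ccr2, Ccr9 and Cxcr4 had log2 fold changes from -1.20 to -0.51. Summed over the receptors, AL libraries had 9.02, 16.4, 27.0 and 9.44 CPM and CR libraries 3.68, 6.63, 7.86 and 6.61 CPM, without overlap. Ccr2, the most counted receptor, gave 3.93, 7.42, 10.3 and 2.38 CPM of the AL sums. In CR it gave 2.12, 2.78, 3.10 and 2.39 CPM, with overlap. The sum is thus not a result for each receptor. Summed over the ligands, AL libraries had between 106.8 and 250.4 CPM and CR libraries between 97.9 and 126.7 CPM, which overlapped. Among the 23 members under the filter, totals ran from 1 to 128 counts, and 16 had more counts in AL, 6 more in CR and 1 as many in both.

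**Figure D4:**
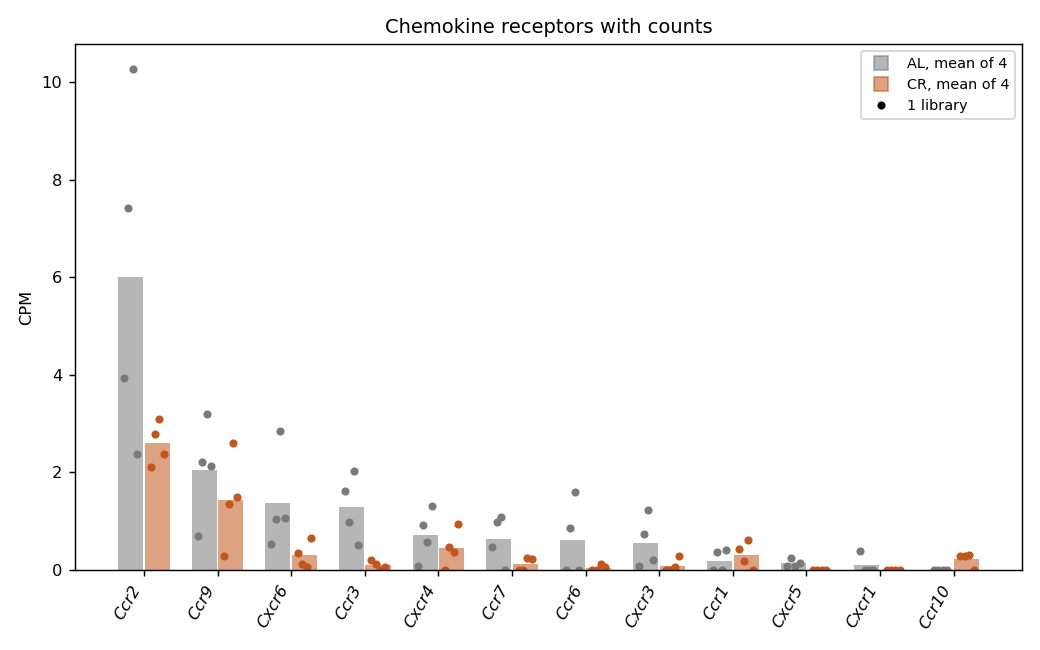
Level in CPM of 12 of the 13 receptors with counts, with bars from 0 at the mean of 4 libraries (grey AL, orange CR) and 1 point per library. In 10 of the 12 the CR bar is below the AL bar, Ccr1 and Ccr10 being the others, and most lie near or under the floor of 0.152 to 0.231 CPM in CR.

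Of 11 further genes of the chemokine system, 6 were tested and 0 called by edgeR, with 0 at an unadjusted p under 0.05 and 0 called by DESeq2. Pf4, the platelet chemokine, had a log2 fold change of -0.13 and Cx3cl1, fractalkine, of 0.00. Its receptor Cx3cr1 on macrophages had -0.81, and Ackr1, a scavenger receptor of venules, had -0.99. Downstream of the receptors, 25 of 26 signalling genes were tested, 21 with a log2 fold change below 0 and 4 above, and edgeR called 0. At an unadjusted p under 0.05, 1 was higher (against 8.62% of all genes) and 5 were lower (against 8.1%), and DESeq2 called 2 of 25 lower, Arrb1 and Itga4 (against 2.4%). Arrb1, an arrestin that ends receptor signalling, was at 32.2, 22.7, 26.7 and 20.7 CPM in AL and at 19.7, 13.3, 14.7 and 13.9 CPM in CR (log2 fold change -0.73, BH-adjusted p = 0.0834 in edgeR). Itga4, the integrin chain that chemokines activate on lymphocytes and monocytes, had means of 6.06 and 2.35 CPM (-1.36, BH-adjusted p = 0.117 in edgeR). Arrb1, Itga4 and Itgal (-1.53, BH-adjusted p = 0.229 in edgeR) were the 3 of 25 that lay wholly lower in CR (against 5.2% of all genes). Wholly higher were 0 (against 4.58%). Rac2, a leukocyte GTPase of migration, had -1.57 (BH-adjusted p = 0.160 in edgeR), and Elmo1, which activates Rac together with Dock2, had 0.98 (BH-adjusted p = 0.295 in edgeR).

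**Figure D5:**
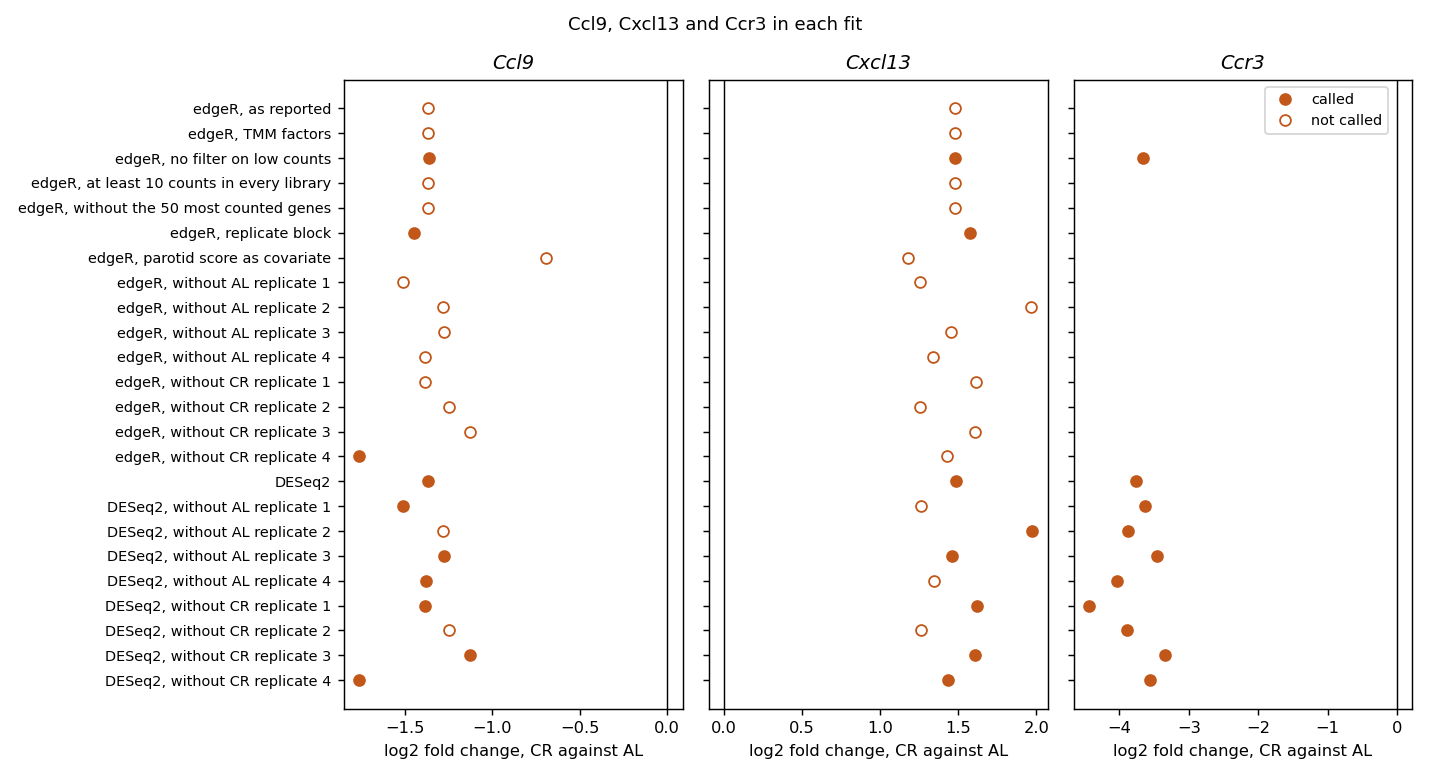
Log2 fold change of CR against AL for Ccl9, Cxcl13 and Ccr3 in each fit with edgeR or DESeq2, 1 row per fit, filled where the gene was called and open where it was not; Ccr3 is drawn for DESeq2 and for edgeR without a filter. Ccl9 lies between -1.76 and -0.69, Cxcl13 between 1.18 and 1.97, and Ccr3 between -4.44 and -3.34. The values of Ccr3 are not exact sizes, as its CR counts were at or under the floor.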

How the data were processed

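Of the submitters' tools, the methods name cutadapt for trimming, STAR for alignment to mm10 and HTSeq for counting. The authors deposited raw counts per gene and log2 values, which equal log2 of each count over its RLE factor plus 1 within 0.00012 and were not used further. The columns of both files matched the 8 samples. Dropping 5 repeats of a symbol left 24552 genes, 16735 with a count and 11211 past edgeR's filterByExpr.

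CR was compared with AL in edgeR 4.0.16 (R 4.3.3) with RLE factors, glmQLFTest and BH adjustment over all genes tested. Standard errors are log2 fold changes over the square root of F. The biological coefficient of variation was 34.7%. The pipeline was tested on simulated data. DESeq2 1.42.0 and other settings were alternatives. P-values measure the spread between these 4 samples per diet.

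The members, roles and lists were chosen with earlier results of these data known. Values per library are given for members called, not overlapping between diets or of lymphoid tissue, and for the 3 most counted. Positions come from GENCODE vM21 (GRCm38) and promoters from RefSeq (GRCm38.p6). 1 member is counted in the totals but not reported here.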

Additional observations from a re-analysis of the deposited data

Results flagged for a closer look

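Ccl6 stood out in AL replicate 3, at 67.7 CPM against 25.8 CPM in the next AL library. The gap was 0.857 of the range of the AL group, above Dixon's 95% critical value for 4 samples. Of 38 groups of 4 libraries examined, over the 19 tested members and both diets, 1 was past its limit, and chance alone flags about 1 in 20.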

How the results depend on the processing

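edgeR called 0 members with TMM factors, with at least 10 counts in every library, with no fold-change threshold, without the 50 most counted genes and with the parotid score as covariate, a fit that called 0 genes in the whole table. Members called higher and lower numbered 1 and 2 in DESeq2 and 1 and 2 with no filter. Leaving out 1 library, edgeR called 0 higher and 0 to 2 lower (1 without AL replicate 4 against 0.658% of all genes, 2 without CR replicate 4 against 2.17%). Ccr3 was the first and Ccr3 and Ccl9 the pair, and nothing is read from Ccr3, which passed the filter through AL. The DESeq2 fits that left out 1 library were chosen after seeing the data. They called 0 to 1 higher (against 1.53 to 4.32% of all genes) and 1 to 4 lower (against 1.2 to 3.43%). Ccr3 was among those lower in all 8 and is not read there either. Signalling genes called numbered 2 in DESeq2. With the replicate number as a block, edgeR called 2 members higher (Cxcl13, Cxcl17, against 3.46% of all genes), 4 lower (Ccl5, Ccl6, Ccl9, Cxcl9, against 2.78%) and 2 signalling genes. Same-numbered libraries correlated at 0.18, 0.10, 0.28 and 0.51 in their deviations from group means, so 3 of 4 were over 0.1 before rounding, and AL replicate 3 and CR replicate 1 correlated best with each other (0.38). Pairing was not assumed, since all 4 had to be over 0.1. Directions turned for Ccl27a (-0.28), Ccr9 (0.70) and Cxcr4 (2.08) with the parotid covariate, for Ccl3 without AL replicate 1, AL replicate 3 or CR replicate 2 (0.0657, 0.349 and 0.321 in edgeR, where leaving out a library gave -0.677 to 0.349, and 0.0601, 0.344 and 0.322 in DESeq2) and for Cxcl14 without AL replicate 3 (0.0362 in edgeR, with a range from -0.441, and 0.0378 in DESeq2), none of them called, and the cause was not tested. The parotid covariate also moved the log2 fold change by over 1.5 times for Cxcl14 (-1.64), Ccr2 (-1.98), Cxcl1 (1.86), Ccl3 (-0.88), Ccl9 (-0.69), Cxcl16 (-0.67), Cxcl9 (-0.86), Ccl28 (0.135) and Ccl25 (-0.07), with no call. Of the other fold changes under these settings, 404 kept direction and call and 27 kept direction and gained a call. Depth limits the 23 members under the filter, for which a difference that was not called may be undetectable rather than absent. Of these, Ccr3 was called in DESeq2, and Cxcr6 in DESeq2 without CR replicate 4. Their counts lay mainly in AL (75 and 84, beside 6 and 20 in CR), so these calls are described and not read as support.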
